A study of Xenopus laevis with 2 samples.

Results

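The genes described here were those measured with many reads in EGFP+ spinal cord cells of *Xenopus laevis* and present there at a higher level than in EGFP- cells. They were chosen by their values, as the gene identifiers with at least 300 expected counts in the EGFP+ library and at least 2 times the CPM, the count per 1000000 counts of a library, of the EGFP- library. This rule found 236 of the 45100 listed genes, which were 3.09% of the 7642 identifiers with at least 300 counts in the EGFP+ library. The ratio that chose them is given as a description, without a test.

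Both samples came from tadpoles at NF stage 50, a stage at which the spinal cord regenerates, of the zGFAP::EGFP line, in full Xla.Tg(Dre.gfap:EGFP)Larra, in which zebrafish *gfap* regulatory regions drive EGFP. Spinal cords of several animals were dissociated, and the cells were sorted by size, granularity and fluorescence into an EGFP+ and an EGFP- sample. Cells of intermediate fluorescence were discarded. The labels give the genotype as GFAP::EGFP+ for the EGFP+ sample and GFAP::EGFP- for the EGFP- sample. The methods name both EGFP+ and EGFP- animals of the line as the source of the cords. They also give the EGFP+ and EGFP- cells as fractions of the same cell population. Which animals gave cells to each sample is not stated. Each population gave 1 library. The labels name a low-input kit and total RNA, whereas the methods name PolyA+ libraries, and which RNA the counts represent is not settled. With 1 library each, no difference has a replicate check. Differences of the cells, of the animals and of the library preparations cannot be told apart. The methods state no injury or treatment for these samples. In such bulk samples, fewer cells of a type and less RNA per cell cannot be told apart.

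Cells that line the central canal of the amphibian spinal cord include radial glia, whose cell bodies lie at the canal and whose long processes reach the outer surface of the cord. They act as neural stem and progenitor cells, divide, and give rise to neurons and glia during growth and repair. GFAP is an intermediate filament protein of glia, and its regulatory regions are widely used to mark radial glia and astrocytes. According to the paper, *Xenopus* has lost its own *gfap* gene, so EGFP reports the zebrafish regions and no *gfap* gene of the animal. EGFP can persist in a cell after the promoter falls silent, so the EGFP+ sort can also hold recent descendants of such cells, while the EGFP- sort was not limited to a cell type.

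The expected counts, which are RSEM's estimates of the reads of each gene, summed to 12242176 in the EGFP- and 13705121 in the EGFP+ library. The transgene, which is no member, had 3376 counts in EGFP+ cells against 89 in EGFP- cells, a CPM 33.9 times higher (95% counting interval 27.5 to 42.3), in the direction of the sort labels. All 45099 other genes are listed by an identifier alone, and none of these could be matched to a name. The cell types of the sorts could therefore not be checked against marker genes, the members are described by their values, and only 2 are given by identifier.

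The member with the highest ratio, Xelaev18030612m.g, had 432.95 expected counts in EGFP+ cells against 70 in EGFP- cells. After scaling it was 5.52-fold higher in the EGFP+ library (95% counting interval 4.28 to 7.22). Its EGFP+ count was not whole, so that RSEM divided at least 1 read between it and another gene. The next member had 120 and 711 whole counts and was 5.29-fold higher (4.36 to 6.48), and its interval overlaps that of the first. The third, with 173 and 954 whole counts, was 4.93-fold higher (4.19 to 5.83). The order of these 3 members is therefore within counting error.

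The most abundant member per length, Xelaev18027016m.g, reached 3669.96 TPM, RSEM's level per gene length, in EGFP+ cells and 1206.13 TPM in EGFP- cells. These levels placed it at rank 116 among all genes of the EGFP- library and at rank 33 in the EGFP+ library. It had 7833 and 23253 expected counts, all of them whole, and was 2.65-fold higher in CPM (2.58 to 2.72). The member next in TPM had the most counts of all members, 10012.13 and 27813.80, and stood at 745.32 and 2096.77 TPM. It was 2.48-fold higher (2.43 to 2.54), less than Xelaev18027016m.g beyond counting error. Its counts were not whole, and the interval leaves out how reads were divided.

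**Figure D1:**
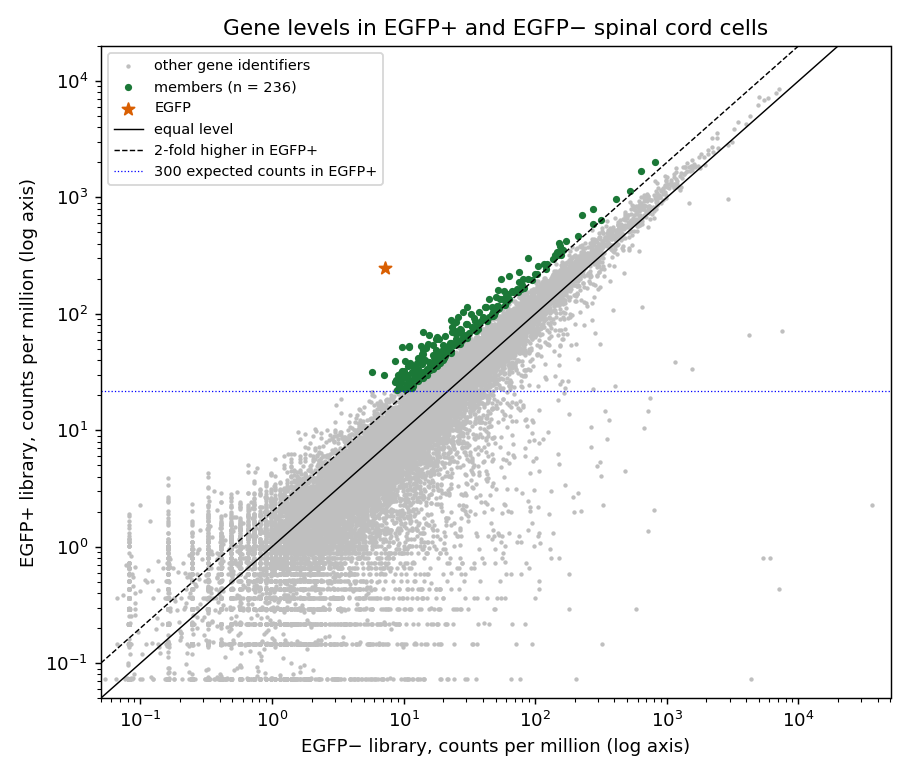
Count per 1000000 (CPM) of each gene in the EGFP- library (x) and the EGFP+ library (y), both on log axes, with the 236 members in green, EGFP as a star and other genes in grey. Members lie close above the dashed line of a 2-fold higher level. EGFP, by whose fluorescence the cells were sorted, is 33.9-fold higher and stands apart from them.

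All members were also expressed in the EGFP- library. The lowest had 70 counts there, and none was at or under 3 counts, taken as the floor of detection. The EGFP- level of a member ranged from 18.1% to 50.0% of its EGFP+ level, with a median of 42.8%. For EGFP, that share was 2.95%, and its ratio was 6.13 times the highest ratio of a member. No member came near the ratio of the transgene, by whose fluorescence the cells were sorted, and none was found in EGFP+ cells alone.

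Ratios among the members were concentrated near the threshold. The median was 2.34, the quartiles were 2.15 and 2.79, and 150 members were under 2.5-fold. At least 3-fold higher were 49 members, 0.641% of the measured identifiers, at least 4-fold higher were 8, and at least 5-fold higher were 2. The counting interval of 137 members, 1.79% of the measured identifiers, lay wholly at or above 2, and that of the other 99 reached below 2. The lowest of the lower limits was 1.64. These limits describe the precision of ratios that the rule had already set at 2 or more. Counting error does not include the spread between animals or library preparations, which these data cannot give.

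**Figure D2:**
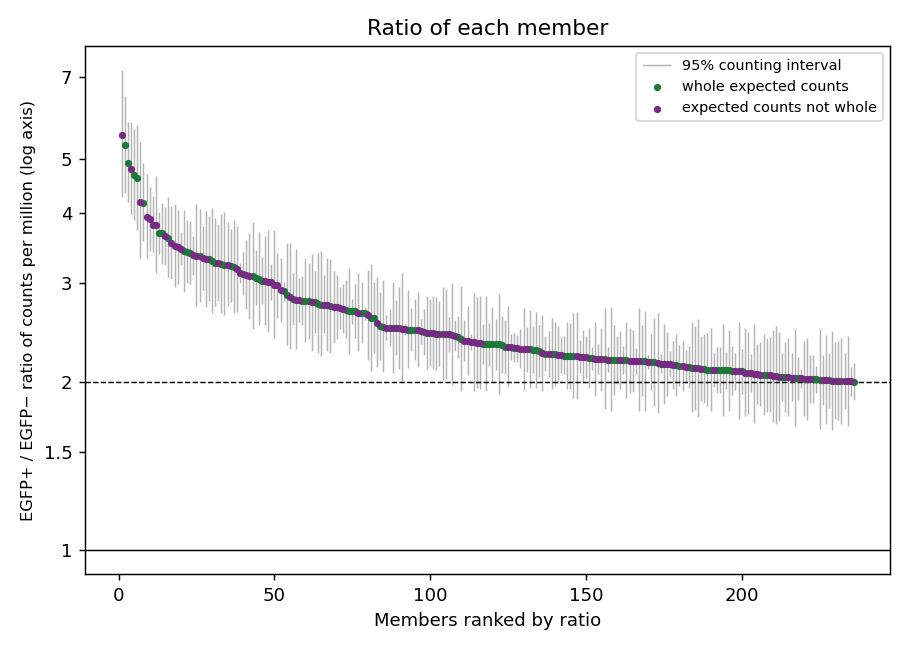
Ratio of CPM, EGFP+ over EGFP- (log axis), of each member, ranked, with 95% counting intervals in grey, and points coloured by whether the expected counts were whole in both libraries. The curve falls from 5.52 to the threshold of 2 (dashed), and members of both colours occur along its length.

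At the threshold of 2, the last members inside had ratios of 2.001, 2.003 and 2.004, and the first genes outside had ratios of 1.99, 1.99 and 1.98. At the threshold of 300 counts, the last members inside had 306.55, 309 and 312.52 counts in the EGFP+ library, and the first genes outside had 297, 296 and 295, with ratios of 2.19, 2.54 and 2.03. The border of the set is thus finer than the counting error of the genes on it. Of the 7642 identifiers with at least 300 counts in the EGFP+ library, 183 had a ratio under 2 and an interval that reached 2.

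The reference for these ratios is an equal CPM in both libraries, and the median gene with at least 300 EGFP+ counts stood above it. A member at a ratio of 2 was therefore less than 2-fold above that median. The minimum count favours genes that are high in the EGFP+ library, so this median is no reference for all genes. Scaling by TMM, the median of ratios or the upper quartile, given below, instead raised the members' ratios, by 0.04 to 0.09 on the log2 scale. The identifiers with at least 300 counts in the EGFP+ library had a median ratio of 1.14, quartiles of 0.972 and 1.32, and 5% and 95% quantiles of 0.711 and 1.78. Within 2-fold of an equal level were 95.6% of them. In the other direction, 98 of them (1.28%) were lower by 2-fold or more. The minimum count in the EGFP+ library leaves out genes that are low there, so this share cannot be set against that of the members.

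Together the members held 2.84% of all counts of EGFP+ cells against 1.17% in EGFP- cells. Their TPM values summed to 24298 in the EGFP+ and 8752 in the EGFP- library. The median member stood at 30.5 TPM in the EGFP+ library, with quartiles of 15.5 and 64.6 TPM, and at 11.1 TPM in the EGFP- library. Its rank by TPM was 3785 in the EGFP+ and 8473 in the EGFP- library. The 100 genes highest in TPM in EGFP+ cells included 2 members, the first 500 included 20, and the first 1000 included 33. In the EGFP- library the same ranks held 0, 7 and 18 members. Among all measured identifiers, 3.09% were members. The higher shares, levels and ranks of the members in the EGFP+ library follow from the rule that chose them.

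The members with the strongest ratios and those with the highest levels are described in turn. The 25 members with the highest ratio, from 3.36 to 5.52, had between 409 and 4174 counts and between 10.5 and 170.2 TPM in the EGFP+ library, and they held 7.34% of the members' EGFP+ counts. The 25 members with the highest TPM, from 170.2 to 3670, held 46.5% of those counts, and their ratios ran from 2.02 to 3.46. With 25 of the 236 members in each group, 1 member belonged to both, and it had 1077.77 and 4174.01 counts. A small overlap follows from groups of this size where ratio and level are unrelated, so it is no result about the members. Across the 236 members, the ratio and the TPM of EGFP+ cells had a Pearson's r of -0.02 on log2 values and a Spearman's rho of 0.03. For the ratio and the effective length, the length over which a fragment can start, r was -0.03 and rho was -0.03. These coefficients describe genes of the same libraries, which are not independent replicates. The rule cut both the ratio and the EGFP+ count, and the EGFP+ level is part of the ratio. The coefficients of ratio and TPM therefore cannot show whether ratio and level are related.

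Members occurred at all depths and lengths. They were 2.64% of the genes with 300 to under 500 counts in the EGFP+ library, 2.97% from 500 to under 1000, 3.604% from 1000 to under 3000, and 3.72% at 3000 counts or more. The share at least 2-fold lower in EGFP+ cells went from 2.03% to 0.286% over the same ranges. The EGFP+ count is itself part of the ratio, so neither share is independent of these ranges. The highest ratio in each of these ranges fell from 5.52 to 5.29, 3.90 and 3.46. By effective length, the share lay between 2.62% under 1000 bases and 3.44% from 2000 to under 4000 bases. The median effective length was 3291 bases for members and 3252 for all measured genes, and the quartiles were 2008 and 5200 bases against 1979 and 5179. The shortest member had an effective length of 179 bases and the longest 18891.

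Members shared reads with other genes about as often as measured genes in general. Counts were whole in both libraries for 120 members (50.8%), against 50.4% of all identifiers with at least 300 counts. *X. laevis* is allotetraploid and carries many genes as an L and an S copy of similar sequence, and RSEM divides reads that fit both. A count was taken as whole only where both decimals given in the files were 0, so that members missing a whole number by 0.01 counted as sharing reads, and how many reads were divided is not known. With counts within 0.05 of a whole number accepted, the shares were 58.9% (139 members) and 57.6%. The level of a member of which many reads were divided is uncertain. The median ratio was 2.33 for members with whole counts and 2.35 for the others, and 5 of the 10 highest ratios belonged to members with whole counts.

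In the direction of EGFP- cells, the same rule gave a larger and more extreme set. Of the 7316 identifiers with at least 300 counts in the EGFP- library, 573 (7.83%) were at least 2-fold higher there. Their median ratio was 5.496 against 2.34 for the members, and 286 of them exceeded the highest ratio of a member. At least 10-fold higher were 228 of them, and no member. In the EGFP+ library, 49 of these genes were at or under 3 counts, 32 of them at 0, and the counts of all 49 were set to 3 for their ratios, which are then lower bounds. They held 12.2% of all counts of EGFP- cells against 0.899% in EGFP+ cells, a direction that follows from the rule that chose them. With 1 library per population, this difference between the sets could not be tested.

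**Figure D3:**
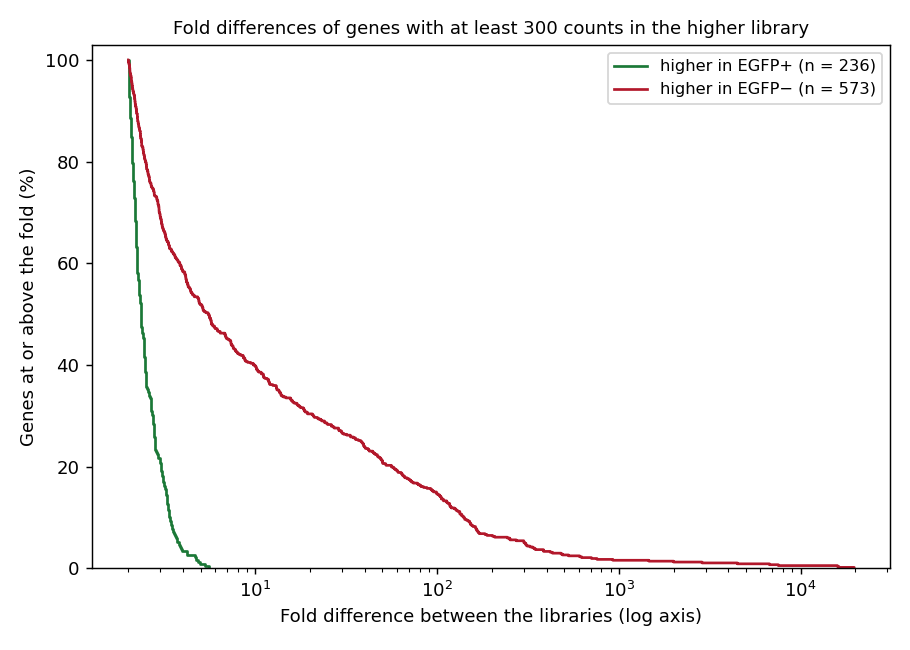
Share of genes (y, percent) at or above a fold difference (x, log axis) among the 236 genes higher in the EGFP+ library and the 573 genes higher in the EGFP- library, each with at least 300 counts in the higher library. The EGFP+ curve ends at 5.52-fold, while 39.8% of the EGFP- genes lie at 10-fold or above.

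Some members stood close together in the numbering of the identifiers, a feature that the rule did not use. Whether neighbouring numbers lie next to each other on a chromosome was not checked here. Of the measured identifiers within 3 steps of a member, counted from each member in turn, 44 of 283 (15.5%) were members too, against 3.09% of all measured identifiers. The share was 4.98% at 4 to 6 steps and 4.08% at 7 to 10 steps. The 44 were 22 pairs counted from both ends. The other measured neighbours stood at median ratios between 1.16 and 1.21 at 1 to 3 steps, near the 1.14 of all measured genes.

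Most of these close pairs held a gene with counts that were not whole. Neither gene had whole counts in 16 of the 22 pairs, 1 of them had in 5 pairs, and both had in 1 pair. With genes of whole counts alone, 2 of 78 measured neighbours within 3 steps (2.56%) were members, against 3.12% of all such genes. With counts within 0.05 of a whole number accepted, 2 of the 22 pairs were whole in both genes, 9 in 1 gene and 11 in neither, and 4 of 101 such neighbours (3.96%) were members, against 3.16%. The part that shared reads play in the closeness was not tested.

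**Figure D4:**
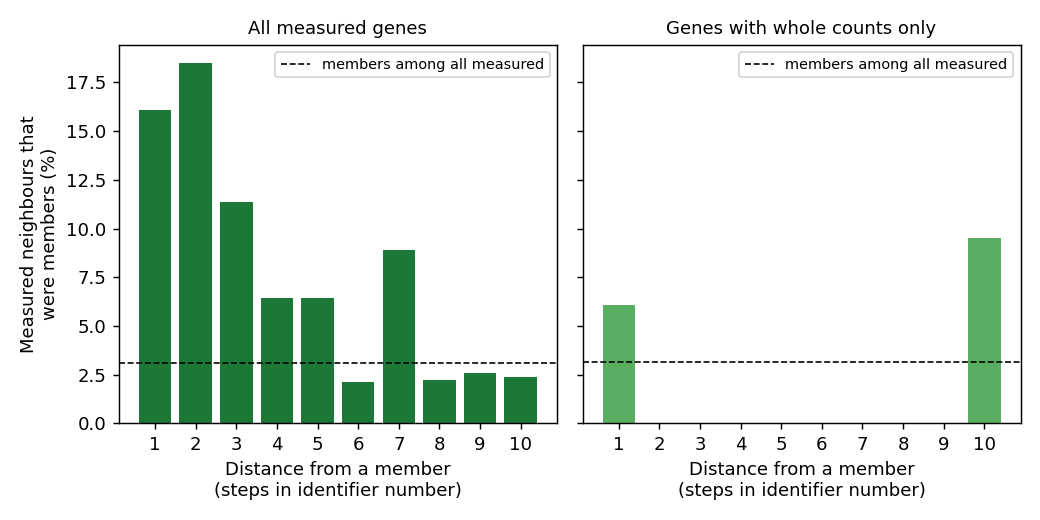
Share of measured neighbours (y, percent) that were members, by distance from a member in steps of the identifier number (x). The left panel holds all measured genes and the right panel those with whole counts in both libraries. A dashed line gives the share of members among all genes of the kind shown in that panel. On the left the first 3 steps reach 16.1%, 18.5% and 11.4%, and on the right 1 pair at 1 step and 1 pair at 10 steps make up the bars.

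Joining members no more than 3 steps apart gave 14 runs with 34 members, of which 10 runs had 2 members, 3 runs had 3 and 1 run had 5. Counts were not whole for 28 of these 34 members (82.4%) and for 88 of the 202 others (43.6%). With counts within 0.05 of a whole number accepted, 24 of the 34 were not whole, while 139 of all 236 members were whole. The longest run spanned 10 identifiers. Its 5 members had 413.2, 118.28, 174.91, 153.99 and 132.53 expected counts in EGFP- cells and 1034, 444.31, 399.53, 521.73 and 411.75 in EGFP+ cells, with ratios of 2.24, 3.36, 2.04, 3.03 and 2.78. A sixth gene between them was also higher, with 90.55 and 235.49 counts and a ratio of 2.32, and stayed outside the set by its count. None of these 6 genes had whole counts. The gene 3 steps before the run, with 392.31 and 831.81 counts that were not whole either, had a ratio of 1.89. The next listed gene after the run, with 205 and 201 whole counts, had a ratio of 0.876.

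A gene with at least 300 EGFP+ counts that is no member has a ratio under 2 by the rule. The 3 runs of 3 members are given with genes beside them. In the first, counts of 1868, 713.51 and 615.98 in the EGFP- library stood against 5589, 2166.60 and 1930 in the EGFP+ library, with ratios of 2.67, 2.71 and 2.80 that lie within the counting error of each other. The gene just before that run had 831 and 797 counts and a ratio of 0.857. In the second, the ratios were 3.07, 3.37 and 3.81, with intervals that overlap, while the gene between the first and the next member had 637 and 672 whole counts and a ratio of 0.942. In the third, 3 consecutive identifiers had 735, 1501.88 and 1888.89 counts in the EGFP- library and 1821.96, 3695.22 and 5287.32 in the EGFP+ library, with ratios of 2.214, 2.198 and 2.5004, the last above the middle one beyond counting error. None of the 3 had whole counts in both libraries, and the intervals leave out how reads were divided. The gene before them had 1272 and 2370 whole counts and a ratio of 1.66. The gene after them had 223 and 85 whole counts and a ratio of 0.340. The only pair within 3 steps in which both members had whole counts, 120 and 384 counts in one and 140 and 503 in the other, had ratios of 2.86 and 3.21.

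**Figure D5:**
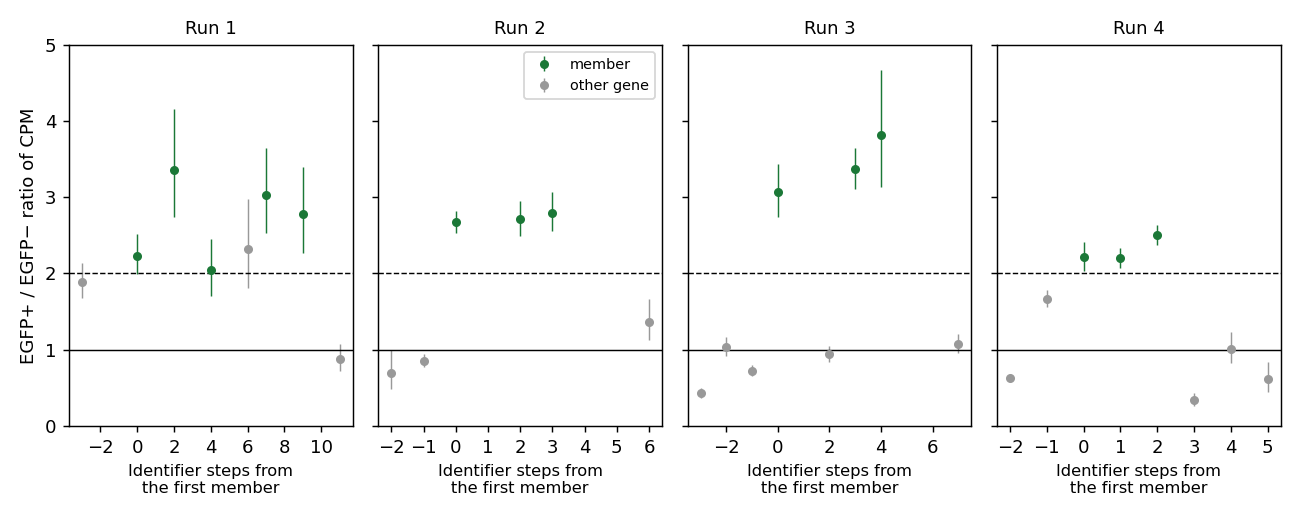
Ratio of CPM, EGFP+ over EGFP-, with 95% counting intervals, of the members (green) in the run of 5 and the 3 runs of 3, and of the other genes (grey) up to 3 steps beyond with at least 50 counts in both libraries. Members lie above the dashed line of 2, and most grey neighbours lie near or under the solid line of an equal level. In the run of 5, the grey genes lie at 1.89, 2.32 and 0.876.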

How the data were processed

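RNA of sorted EGFP+ and EGFP- spinal cord cells was sequenced as 1 library each. Per the labels and the methods, the authors used CASAVA 1.8.2, Bowtie 1.2.2 and RSEM 1.3.0 with the J-strain transcriptome XL_9.1_v1.8.3.2. They deposited RSEM expected counts without normalization. The deposited TPM values are scaled by RSEM to gene length and a fixed total. The deposited FPKM values are scaled by RSEM to gene length and mapped fragments.

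The expected counts were scaled to CPM by the library total. Members were the gene identifiers other than EGFP with at least 300 expected counts in the EGFP+ library and at least 2 times the CPM of the EGFP- library, where a zero was set to 3 counts. For genes higher in EGFP- cells, EGFP+ counts at or under 3 were set to 3. The members and the gene lists were chosen with earlier results of these data known. Ratios have exact 95% Clopper-Pearson intervals on rounded counts, which cover counting error only. Effective length was derived from the counts and FPKM. With 1 library per population no test was run. The ratio and interval code was checked on simulated data. Size factors for the alternatives came from DESeq2 1.42.0 (median of ratios) and edgeR 4.0.16 (TMM, upper quartile) in R 4.3.3, and figures from matplotlib 3.10.9 in Python 3.11.15.

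Genes were to be named as the 25 members with the highest ratio, the 25 with the highest TPM, members on fixed lists and genes at the thresholds, or, without names, by at most 2 identifiers. The table of gene names belongs to assembly v10.1, and 0 of the 45099 identifiers matched an entry in it. The 2 identifiers printed are those of the highest ratio and the highest TPM. The 23 fixed lists, with 637 genes, therefore gave no values, and L and S copies were not summed.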

Additional observations from a re-analysis of the deposited data

How the results depend on the processing

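No paired analysis was possible because EGFP+ and EGFP- cells gave 1 library each, which also left none to leave out. The number of members, 236, was 258 with TMM, 280 with the median of ratios and 305 with the upper quartile. These scalings raised all ratios alike, by 0.04, 0.06 and 0.09 on the log2 scale, so that all 236 had to stay members. The number was 397 with the deposited TPM, which raised the members' ratios by a median of 0.17 on the log2 scale. Minimums of 100 and 1000 counts gave 421 and 94 members, and no minimum gave 1725. A fold of 1.5 gave 953 and a fold of 3 gave 49. With the lower counting limit at 2 or more there were 137 members, and with whole counts alone 120, or 139 with counts within 0.05 of a whole number. The median ratio of the 236 members, 2.34, stayed between 2.29 and 2.64 under the 6 scalings and pseudocounts. The share of members among measured neighbours within 3 steps fell from 15.5% to 2.56% with whole counts alone and to 3.96% with counts within 0.05 of a whole number. These alternatives on whole counts for the neighbours, and the limit of 0.05, were chosen after seeing the data. Summing L and S copies and the settings for the gene lists were not run, since no identifier could be named.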

Other observations

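Below 300 counts, the rule leaves out genes at which counting error is larger. Of the 5936 identifiers with 100 to under 300 counts in the EGFP+ library, 185 (3.12%) were at least 2-fold higher there, and the lower counting limit of 46 of these was 2 or more. Only 2 of them exceeded the highest ratio of a member, the higher at 6.06. With 30 to under 100 counts, 305 of 5239 identifiers (5.82%) were at least 2-fold higher, 59 of them with a lower limit of 2 or more, and 8 of the 305 were at or under 3 counts in the EGFP- library. Of the 305, 26 exceeded the highest ratio of a member, the highest at 23.67. With 10 to under 30 counts, 477 of 3525 identifiers (13.5%) were at least 2-fold higher, 80 of them with a lower limit of 2 or more, and 187 of the 477 were at or under 3 EGFP- counts. Of the 477, 76 exceeded the highest ratio of a member, the highest at 23.39. These ranges are set by the EGFP+ count, which is part of the ratio. A zero in the EGFP- library was set to 3 counts, while counts between zero and 3 were kept. Ratios of genes at or under 3 EGFP- counts therefore do not share one floor. The highest ratios in the ranges under 100 counts rest on few EGFP- reads.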
